A study of Mus musculus with 5 samples.

Results

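Oxidative phosphorylation is built from genes of 2 genomes, and the members described here are the genes for its parts. Nuclear members were chosen by symbol (Ndufa, Ndufb, Ndufc, Ndufs, Ndufv, Uqcr and Atp5 genes, Cox4 to Cox8 genes, Sdha, Sdhb, Sdhc, Sdhd, Cyc1 and Cycs), and mitochondrial members were all chromosome M genes other than the rRNAs and tRNAs. The rule found 103 of the 18384 genes in the files, 90 nuclear and 13 mitochondrial, and 100 to 102 of them were detected per plate. The rule itself used no measured value, but the members were chosen with earlier results of these data known. The nuclear members comprised 7 core and 28 accessory subunits of complex I, 4 subunits of complex II, 9 of complex III, cytochrome c, 12 subunits of complex IV and 15 of complex V. The other nuclear members were 7 Ndufaf assembly factors, Cox7a2l, Atp5s, Atp5sl and 4 alternative isoforms of complex IV parts (Ndufa4l2, Cox4i2, Cox6a2, Cox7a1).

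Cells came from MMTV-PyMT tumor organoids, in which a mammary tumor virus promoter drives the polyoma middle T antigen in mouse mammary epithelium. The organoids were grown in basement membrane extract (BME) and then embedded for 5 days either in BME, labelled as not invading (3 plates), or in Collagen I, labelled as invading (2 plates, replicates 1 and 3). The labels of both groups give the same growth medium, with B27, N-Acetyl-L-cysteine and FGF2, and give no age or strain. Live single cells were sorted into 384-well plates, and the 3′ ends of their poly(A) RNA were counted by molecular barcodes. Whether the plates stem from separate cultures is not given in the sources used here, so every p-value below measures the spread between plates, which may be technical. A single flow cell carried the 3 BME plates, and the Collagen I plates were sequenced on 2 others, so matrix and sequencing run cannot be told apart.

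Complex I (NADH dehydrogenase) and complex II (succinate dehydrogenase) pass electrons to complex III, cytochrome c carries them to complex IV, and complex V uses the resulting proton gradient to make ATP. The mitochondrial genome encodes core parts of complexes I, III, IV and V, transcribed as long precursors from both strands, whereas complex II and all other subunits are nuclear. In mammary tumor cells, as in other epithelia, the balance between this pathway and glycolysis varies with growth state and oxygen supply.

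After filtering, 259 to 293 cells were kept per BME plate and 204 and 222 per Collagen I plate. Median counts per kept cell were 23184 to 29927 in BME and 5940 and 3478 in Collagen I, and the unprocessed ribosomal RNA Rn45s took 1.70% to 2.71% of counts against 6.74% and 8.16%. All 384 well barcodes are used on every plate, by design. Cells were clustered without the members and without chromosome M genes into basal-like cells (66 to 86 per plate, with Krt5, Krt14 and Krt17 among the leading genes), luminal-like cells (46 to 102, led by Mgp, Spp1 and Csn3) and proliferating cells (38 to 120, led by Top2a, Ccna2 and Cdk1). A further group of 4 to 22 cells per plate stayed unnamed and enters only the values over all kept cells. The proliferating share of the kept cells was larger in BME (105 to 120 cells a plate) than in Collagen I (38 and 46), which bears on every value over all kept cells.

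Mitochondrial mRNA took a smaller share of all counts in Collagen I than in BME in each class. Over all kept cells the 13 mitochondrial members held 14.5%, 9.99% and 10.6% of counts on the BME plates and 4.69% and 5.21% on the Collagen I plates. BME replicate 1 was the highest plate, and the groups did not overlap. The means were 11.7% ± 2.45 (SD, n = 3) and 4.95% ± 0.373 (SD, n = 2), a ratio of 2.36 (exact permutation test over plates, two-sided, p = 0.1, the smallest that this design allows).

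By class the ratio was largest in basal-like cells, at 2.86, with 13.8%, 9.79% and 10.4% on the BME plates and 3.99% and 3.92% on the Collagen I plates. Luminal-like cells held 15.4%, 10.6% and 10.9% against 4.32% and 5.18%, a ratio of 2.59. Proliferating cells held 14.5%, 9.98% and 10.6% against 6.15% and 6.23%, a ratio of 1.89. In every class both Collagen I plates lay below all BME plates (exact permutation p = 0.1 each). The proliferating class lay above both other classes on each Collagen I plate and between them on each BME plate.

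**Figure D1:**
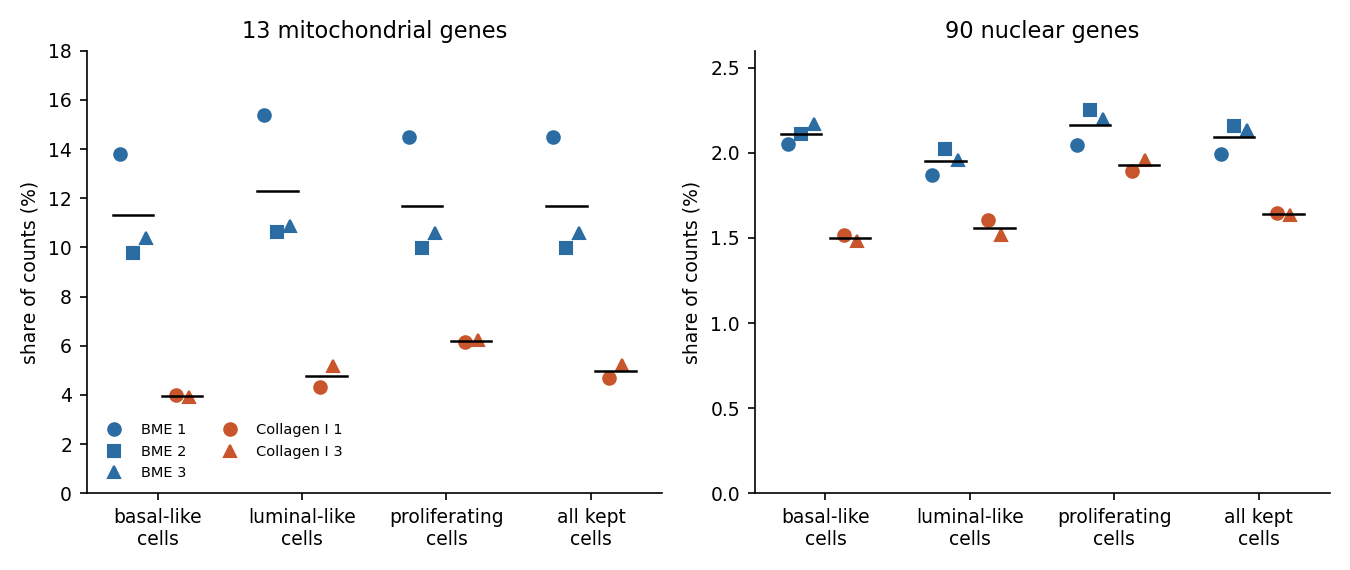
Share of all counts (%) held by the 13 mitochondrial members and by the 90 nuclear members, by class, with 1 point per plate and a bar at the mean of each group (3 BME plates, 2 Collagen I plates). Mitochondrial shares lie at 9.79% or above on every BME plate and at 6.23% or below on every Collagen I plate, while the nuclear shares move by less.

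The nuclear members differed in the same direction by a smaller amount. They held 2.00%, 2.16% and 2.13% of counts on the BME plates over all kept cells and 1.65% and 1.63% on the Collagen I plates, a ratio of means of 1.28 (exact permutation p = 0.1). The shares were 2.11% ± 0.0599 against 1.502% ± 0.0247 in basal-like cells and 1.95% ± 0.0787 against 1.56% ± 0.0594 in luminal-like cells (SD, n = 3 and n = 2). Proliferating cells stood closest together, at 2.16% ± 0.107 against 1.93% ± 0.0447 (exact permutation p = 0.2), although their plates did not overlap either. Counts of mitochondrial members per count of nuclear members therefore went from 5.62 ± 1.44 in BME to 3.02 ± 0.243 in Collagen I over all kept cells (exact permutation p = 0.1).

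Spike-in RNA added to each well gave a scale that does not depend on the other genes of a cell. Per ERCC count, mitochondrial members stood at 5.88, 3.65 and 4.67 counts on the BME plates and at 1.62 and 0.804 on the Collagen I plates. All other endogenous genes stood at 33.9, 32.1 and 38.5 against 32.5 and 14.4. On Collagen I replicate 1 the other genes thus lay within the BME range while the mitochondrial members lay below it, and on Collagen I replicate 3 both lay below. Nuclear members stood at 0.809, 0.787 and 0.941 against 0.570 and 0.252, below BME on both Collagen I plates. In these sums, fewer transcripts per cell and less efficient capture of them cannot be told apart.

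The difference was present in most single cells and did not come from a few. The median mitochondrial share per cell was 11.2% over the 814 BME cells and 4.25% over the 426 Collagen I cells, and 2.11% of the Collagen I cells lay above the BME median. Among basal-like cells that figure was 0.746%, among luminal-like cells 1.53% and among proliferating cells 3.57%. Within a plate, cells with more mitochondrial mRNA had slightly more nuclear member mRNA, with Spearman correlations of the 2 shares of 0.116, 0.108 and 0.124 on the BME plates (293, 259 and 262 cells) and 0.328 and 0.173 on the Collagen I plates (204 and 222 cells). The mitochondrial share also correlated weakly with a cell's total counts on every plate (0.0799 to 0.317). These cells share a library and their 2 shares have a common denominator.

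Individual mitochondrial genes were compared on counts summed per plate and class with edgeR's quasi-likelihood test, adjusted by Benjamini-Hochberg over all genes, and called at an adjusted p under 0.05. In basal-like cells 12 of 13 were called lower in Collagen I, where 6.75% of all 9639 genes tested were called lower, and their median log2 fold change was -1.52 beside -0.07 for all genes. The same number, 12 of 13, was called lower in luminal-like cells (11.5% of all genes called lower) and over all kept cells (15.2%). In proliferating cells 9 of 13 were called lower (3.29% of all genes), with a median of -0.94 beside -0.07. Those that missed the threshold there were mtCo2 (-0.66, adjusted p = 0.0849), mtCo3 (-0.56, adjusted p = 0.0845) and mtAtp8 (-0.73, adjusted p = 0.0597), besides mtNd6. No mitochondrial member was called higher in any class.

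Transcripts of the complex I and III genes mtNd2 and mtCytb were among the furthest down. In basal-like cells mtNd2, a membrane subunit of complex I, stood at 16427, 10456 and 12308 CPM (counts per 1000000 counts of the plate and class) on the BME plates and at 3268 and 3288 CPM on the Collagen I plates. Both Collagen I plates lay far below the lowest BME plate, a log2 fold change of -2.04 ± 0.236 (SE, edgeR adjusted p = 7.19e-09). Cytochrome b, the 1 mitochondrially encoded subunit of complex III, stood at 15372, 9949 and 10913 CPM against 3237 and 3133 CPM, with no overlap (log2 fold change -1.97 ± 0.234, edgeR adjusted p = 1.39e-08). The small subunit mtNd4l reached -1.88 ± 0.254, mtAtp6, the proton channel subunit of complex V, -1.68 ± 0.238, and both mtNd4 and mtNd5 -1.67.

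Several other genes were lower by less, those of complex IV among them. In basal-like cells mtCo1, the catalytic subunit of cytochrome oxidase, stood at 14706, 14862 and 12587 CPM in BME and 5655 and 6386 CPM in Collagen I (log2 fold change -1.26 ± 0.218, edgeR adjusted p = 2.72e-05). For mtCo2 the values were 16436, 12510 and 12941 CPM against 6089 and 5928 CPM (-1.26 ± 0.221, edgeR adjusted p = 3.56e-05). The groups did not overlap for either gene. The third complex IV gene mtCo3 was at -1.37, no nearer to 0 than mtNd1 of complex I at -1.36, and mtAtp8 of complex V was nearest among the called genes at -1.11. The order of the changes was alike in luminal-like cells, where mtNd4l (-1.98), mtNd2 (-1.77) and mtCytb (-1.76) changed most and mtCo2 (-0.81) and mtAtp8 (-0.86) least among the called genes. The places of mtNd4l and mtAtp8 in these orders are uncertain, since each shares bases with the gene that follows it.

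**Figure D2:**
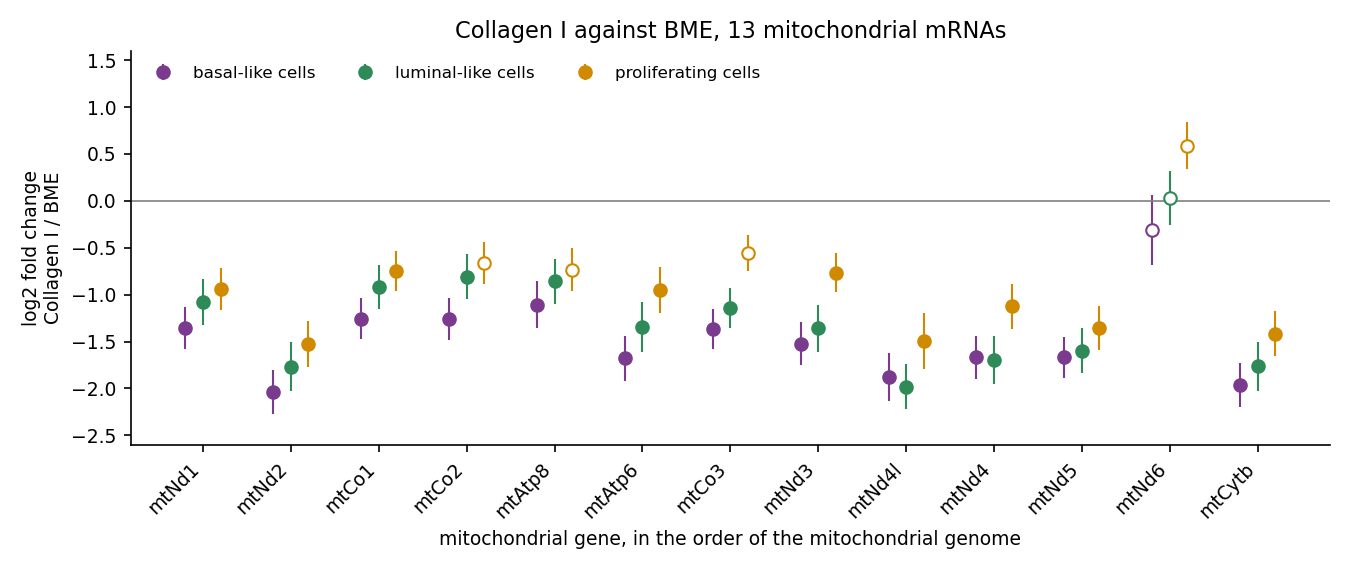
Log2 fold change of Collagen I against BME for each mitochondrial member, with bars for 1 standard error, in basal-like, luminal-like and proliferating cells (edgeR on sums per plate), filled where called at an adjusted p under 0.05 and open otherwise. The proliferating values lie nearer to 0 than those of the other classes for the 12 genes besides mtNd6, which lies between -0.31 and 0.59.

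Complex I subunit mtNd6 differed from the other 12. It is the member encoded on the opposite strand of the genome (chrM:13552-14070, minus strand). Its counts were low, at 11 and 8 in the Collagen I sums of basal-like cells. Basal-like cells held 36.6, 48.5 and 33.9 CPM in BME and 30.6 and 36.6 CPM in Collagen I, and the groups overlapped (log2 fold change -0.31 ± 0.371, edgeR adjusted p = 0.636). It was not called in luminal-like cells (0.03), in proliferating cells, where both Collagen I plates lay above the BME plates (0.59, adjusted p = 0.180), or over all kept cells (0.08, adjusted p = 0.771). Per 1000 mitochondrial mRNA counts mtNd6 held 0.418 ± 0.0613 in BME and 1.03 ± 0.0288 in Collagen I over all kept cells, with no overlap (exact permutation p = 0.1). The denominator of this ratio was lower in Collagen I, while mtNd6 itself was not called.

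Several neighbouring mitochondrial genes overlap, so reads near their shared ends could be counted for either. The overlaps of 3 pairs are shown on the plus strand of GRCm38 (GENCODE vM21 gene bounds) with the shared bases in capitals. By these bounds mtAtp6 and mtCo3 also share base 8607, which is not shown.
mtAtp8 and mtAtp6, chrM:7912-7984: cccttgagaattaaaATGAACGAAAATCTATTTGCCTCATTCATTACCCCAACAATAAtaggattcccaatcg
mtNd4l and mtNd4, chrM:10152-10188: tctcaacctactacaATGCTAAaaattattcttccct
mtNd5 and mtNd6, chrM:13537-13580: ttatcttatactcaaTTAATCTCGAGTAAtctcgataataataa
The first pair shares 43 bases and the second 7, and each of these pairs lies on 1 strand. Where 1 transcript carries both genes of such a pair, a 3′ count cannot be divided between them. The third pair shares 14 bases at the 3′ ends of genes on opposite strands, where a 3′ count of mtNd5 falls next to mtNd6. The sources do not state whether strand was used in counting, so the values of mtNd6 and of mtAtp8, mtAtp6, mtNd4l and mtNd4 as single genes are uncertain.

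The make-up of mitochondrial mRNA differed between the matrices, with a larger share of complex IV genes in Collagen I. Of all mitochondrial mRNA counts over all kept cells, mtCo1 took 10.2%, 12.9% and 12.01% on the BME plates and 14.7% and 14.8% on the Collagen I plates. For mtCo2 the shares were 11.6%, 12.2% and 11.5% against 15.8% and 15.4%. In the other direction mtNd2 took 12.1%, 10.7% and 12.4% against 7.92% and 8.59%. Cytochrome b took 11.3%, 10.5% and 10.4% against 8.16% and 7.93%. The plates of the groups did not overlap for these 4 genes. Genes of complex I did not all go together. Of these mtNd1 took a larger share in Collagen I (12.1%, 12.5% and 12.3% against 13.1% and 13.04%), without overlap. Counts assigned to mtAtp8 of complex V also took a larger share (0.678%, 0.536% and 0.589% against 0.713% and 0.844%), without overlap of the plates. The shares of mtAtp6 (18.3% ± 0.600 and 17.8% ± 0.181) and mtNd3 (3.83% ± 0.157 and 3.89% ± 0.163) were about the same in both matrices. Because mtAtp8 and mtAtp6 share bases on the same strand, no difference between these genes is read from their shares. Summed by complex, complex IV genes made up 25.7% to 30.3% of mitochondrial mRNA in BME and 36.1% and 35.4% in Collagen I, and complex I genes 40.7% to 43.3% against 37.3% and 37.9%. A ratio of this kind shows unequal change and not that any gene kept its level.

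**Figure D3:**
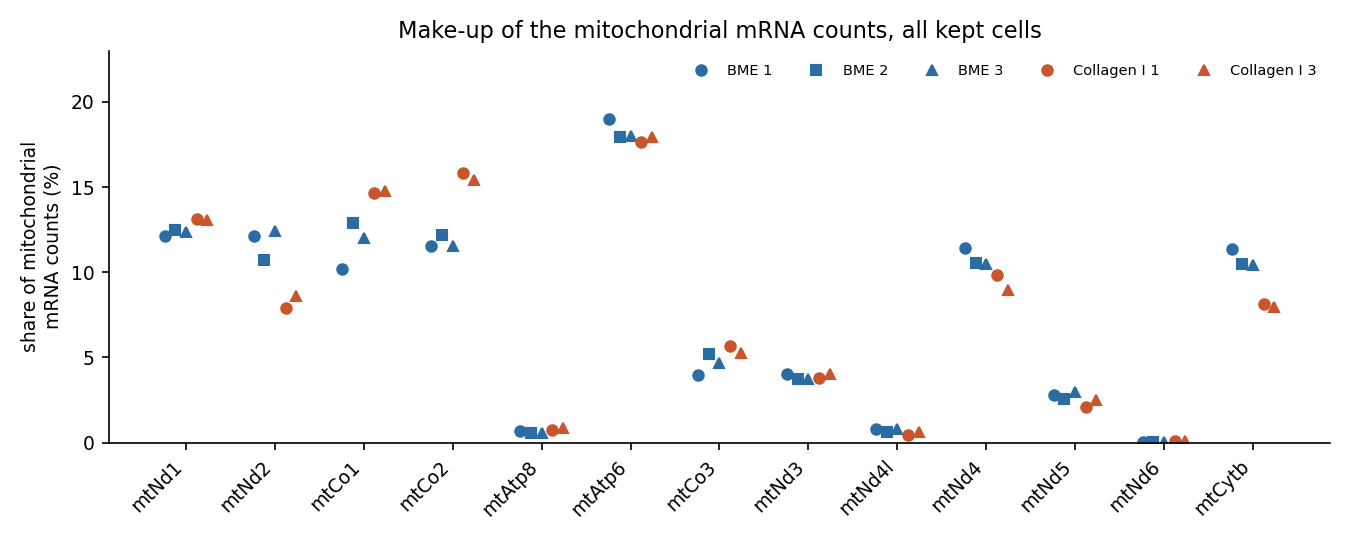
Share of mitochondrial mRNA (%) of each mitochondrial member over all kept cells, 1 point per plate, BME (3 plates) and Collagen I (2 plates). The Collagen I plates lie above the BME plates for mtCo1 and mtCo2 and below them for mtNd2 and mtCytb.

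The sum of the mitochondrial rRNAs differed less between the matrices than the mRNAs. The 2 rRNAs together held 3.71% ± 0.544 of counts in BME and 3.6% ± 0.539 in Collagen I over all kept cells, with overlapping plates (exact permutation p = 0.8). The small rRNA mt-Rnr1 was higher in Collagen I, at 0.865% and 1.05% of counts against 0.589%, 0.494% and 0.731%, with no overlap (exact permutation p = 0.1). The large rRNA mt-Rnr2 had a lower mean in Collagen I, at 2.64% ± 0.405 against 3.10% ± 0.445, with overlapping plates (exact permutation p = 0.4), and in proliferating cells its plates did not overlap (2.69% ± 0.148 against 3.12% ± 0.377, exact permutation p = 0.2). Mitochondrial mRNA counts per rRNA count were 4.36, 2.89 and 2.45 in BME and 1.46 and 1.31 in Collagen I, again with no overlap (exact permutation p = 0.2).

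Leaving out single plates moved the proliferating result most. The 9 mitochondrial genes called there became 0 without either Collagen I plate, when the lone plate left is assumed to vary like the BME plates, and 5 without BME replicate 3, while in luminal-like cells the 12 became 7 without Collagen I replicate 1. When cells were limited to 10% of counts on all of chromosome M, a rule that selects cells on the members themselves and kept 32, 56 and 41 cells of the BME plates, 7 were called in basal-like, 1 in luminal-like and 5 in proliferating cells, and mtCo1, mtCo2 and mtAtp8 no longer had a negative sign in luminal-like cells.

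Among the nuclear members of basal-like cells, genes of complexes V and IV were lower in Collagen I most often. Of 86 tested, 25 were called lower and 1 higher, where 6.75% of all genes were called lower and 9.33% higher, and the median log2 fold change was -0.54 beside -0.07 for all genes. By complex, 10 of 15 complex V subunits were called lower, 6 of 11 of complex IV, 2 of 9 of complex III, 1 of 4 of complex II and 5 of 35 of complex I, with 1 of complex I higher. Summed over all nuclear genes of a complex, the ratio of the BME to the Collagen I share was 1.55 for complex V, 1.43 for IV, 1.41 for III, 1.23 for I and 1.22 for II. Complex V subunits and factors went from 0.754% ± 0.0310 to 0.485% ± 0.0387 of counts, complex IV genes from 0.519% ± 0.00986 to 0.362% ± 0.00439 and complex I genes from 0.547% ± 0.0258 to 0.444% ± 0.00921 (exact permutation p = 0.1 each).

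In complex V, Atp5g3 is one of 3 genes (with Atp5g1 and Atp5g2) whose products yield the same mature c subunit of the rotor ring. It stood at 1066, 971 and 1088 CPM in BME and 562 and 600 CPM in Collagen I, without overlap (log2 fold change -0.88 ± 0.198, edgeR adjusted p = 0.00111). Atp5g1 was also called (-0.90, adjusted p = 0.00388), and Atp5g2 was not (-0.42, adjusted p = 0.158). The e subunit gene Atp5k changed most among the called genes of complex V, from 251, 267 and 273 CPM to 150 and 105 CPM (-1.05 ± 0.227, edgeR adjusted p = 0.000674). The catalytic head genes Atp5a1 (-0.90) and Atp5b (-0.68) and the stalk genes Atp5h (-0.69) and Atp5o (-0.65) were called too, and Atp5d, at -0.08, and Atp5j2, at -0.20, were not.

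For complex IV, Cox6b1 stood at 613, 443 and 504 CPM in BME and 275 and 325 CPM in Collagen I (-0.84 ± 0.214, edgeR adjusted p = 0.00408). Cox6a1 stood at 828, 648 and 662 CPM against 373 and 471 CPM (-0.81 ± 0.208, edgeR adjusted p = 0.00475). Both genes had all Collagen I plates below all BME plates. Cox5a, Cox5b, Cox7b and Cox8a were called lower as well, between -0.58 and -0.78. Cox4i1, the common form of the largest nuclear subunit, was not called (511, 586 and 489 against 540 and 458 CPM, log2 fold change -0.12, adjusted p = 0.743), nor was Cox7a2 (-0.36). Cox7c missed the threshold at -0.93 (edgeR adjusted p = 0.0616), on 13 and 7 counts on the Collagen I plates.

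Complexes III and II gave fewer calls. Uqcrfs1, the Rieske iron-sulfur protein, stood at 264, 236 and 255 CPM against 128 and 114 CPM (-1.08 ± 0.229, edgeR adjusted p = 0.000519), and the core protein Uqcrc2 was at -0.88 (adjusted p = 0.00509). Uqcrh, at -0.23, and Uqcrb, at -0.38, were not called. In complex II the membrane anchor Sdhd was called at 77.6, 87.03 and 85.8 CPM against 58.4 and 32.03 CPM (-0.85, edgeR adjusted p = 0.0491). Sdha (-0.63, adjusted p = 0.0768) and Sdhb (-1.03, adjusted p = 0.0728) missed the threshold, and Sdhc, the other anchor, had the opposite sign (0.37, adjusted p = 0.269). The Collagen I sums held 21 and 7 counts of Sdhd and 10 and 3 of Sdhb, against 202 and 131 of Atp5g3. The number of calls per complex is therefore limited by depth. Cytochrome c itself, Cycs, was at -0.49 and was not called (adjusted p = 0.104).

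Complex I was divided. The calls lower were Ndufa10 (-1.41), Ndufc2 (-1.09), Ndufs1 (-0.88), Ndufab1 (-0.74) and Ndufb5 (-0.69). Ndufs1, the iron-sulfur core subunit of the electron input arm, stood at 129, 116 and 99.1 CPM against 63.95 and 64.05 CPM. In contrast Ndufv3, a small accessory protein of the same arm, was higher in Collagen I, at 116, 112 and 98.6 CPM in BME and 211 and 297 CPM in Collagen I (1.16 ± 0.215, edgeR adjusted p = 8.02e-05). Its Collagen I plates lay above every BME plate in each class. The other tested complex I subunits had log2 fold changes from -0.82 (Ndufs8) to 0.38 (Ndufa7), and the assembly factor Ndufaf4 was called lower (-1.25, adjusted p = 0.0316).

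Markers of other states moved with these results in basal-like cells. The 12 proliferation markers summed to 429 to 654 CPM in BME and 142 to 206 CPM in Collagen I, with 6 of 11 tested called lower. The 13 luminal markers summed to 1248 to 1422 CPM against 3824 to 4182 CPM, with 5 of 9 called higher and 2 lower. The 6 basal markers summed to 2154 to 3181 CPM against 3104 to 4469 CPM, and the groups overlapped. The 7 fibroblast markers summed to 29.4 to 46.1 CPM against 50.05 to 614 CPM. Immune markers summed to at most 0.631 CPM in BME and were at 0 in Collagen I. Endothelial markers summed to 2.29 to 4.42 CPM and 0, and adipocyte and muscle markers to at most 0.631 CPM and 0. The Collagen I sums of basal-like cells held 359653 and 218567 counts, so values of a few CPM are near the floor there. Cd3e, Csf1r, Cdh5, Kdr, Tie1, Acta1, Myh11 and Ucp1 were at 0 on all 5 plates in these cells. The part of the proliferation, luminal, basal and fibroblast lists in the changes of the members was not tested. Leaving out Collagen I replicate 1 turned the 26 nuclear calls into 12, leaving out replicate 3 of that matrix into 10 and leaving out BME replicate 3 into 15, and DESeq2 made 17.

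**Figure D4:**
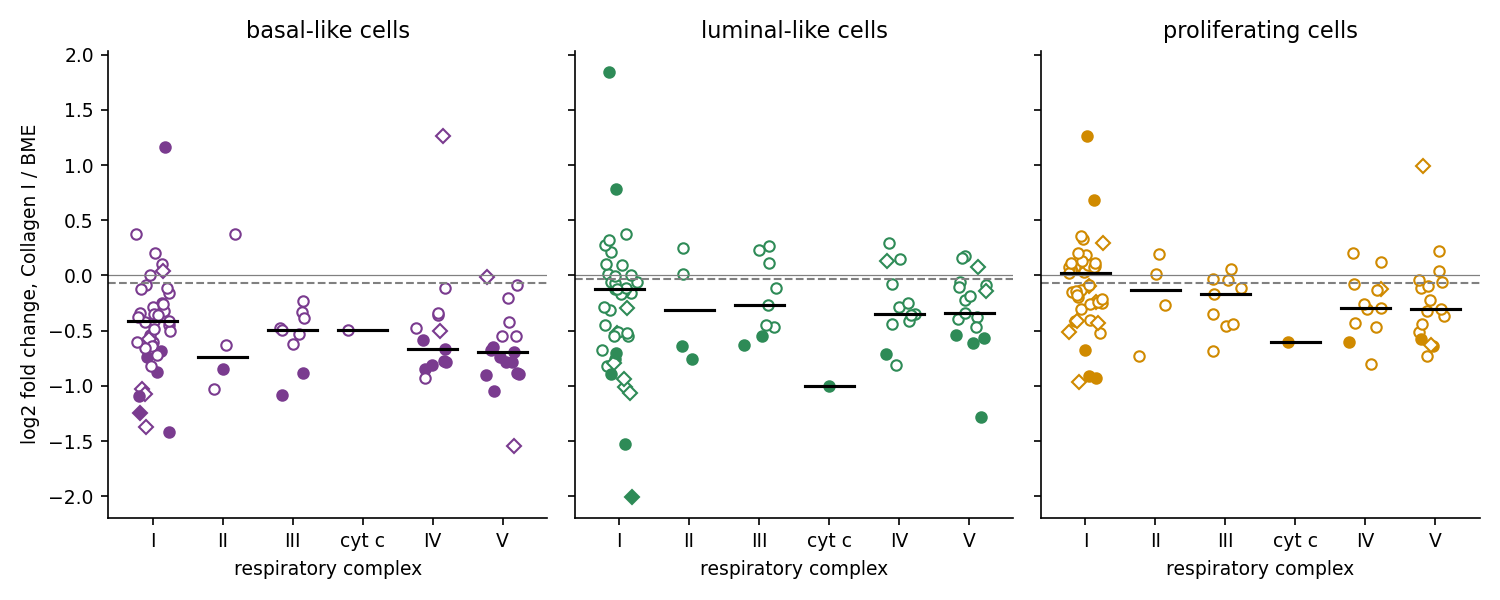
Log2 fold change of Collagen I against BME for the nuclear members by complex, in basal-like, luminal-like and proliferating cells, with filled points for genes called at an edgeR adjusted p under 0.05, open points for the others, diamonds for members that are not subunits, a black bar at the median of the subunits and a dashed line at the median of all genes tested. In basal-like cells the medians of complexes V and IV lie near -0.69 and -0.67, and in proliferating cells the median of complex I lies at 0.02.

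Luminal-like cells showed fewer nuclear calls against a higher background. Of 85 tested, 15 were called lower and 2 higher, where 11.5% of all genes were called lower, 13.6% higher and 25.1% either way. The median was -0.27 beside -0.03. The share called lower was near that of all genes, and the share called either way did not exceed it. These counts are therefore no result about the members. Cycs, the soluble electron carrier, was among the clearest, at 342, 396 and 310 CPM in BME and 171 and 156 CPM in Collagen I (-1.005 ± 0.190, edgeR adjusted p = 0.000348). Ndufs1 stood at 118, 107 and 98 CPM against 43.6 and 24.0 CPM (-1.53 ± 0.265, edgeR adjusted p = 0.000126). Neither gene overlapped between groups. The stator gene Atp5f1 fell by 1.28 on the log2 scale and the assembly factor Ndufaf4 by 2.00, and Cox5a was the 1 complex IV subunit called (-0.71). The proliferation markers of luminal-like cells summed to 274 to 510 CPM in BME and 202 to 216 CPM in Collagen I. Basal markers summed to 172 to 202 CPM against 476 to 706 CPM, luminal markers to 4816 to 5141 CPM against 7647 to 8150 CPM and fibroblast markers to 40.4 to 64.7 CPM against 99.6 to 233 CPM, all without overlap. The part of these 4 lists was not tested. The 17 calls became 9 without either Collagen I plate, 11 without BME replicate 3 and 28 without BME replicate 1.

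Higher calls in luminal-like cells were both accessory subunits of complex I. Their share lay below the 13.6% of all genes called higher, so their number is no result about the members. Ndufv3 went from 83.2, 77.4 and 85.2 CPM to 275 and 283 CPM (1.84 ± 0.180, edgeR adjusted p = 4.11e-08). Ndufa7 went from 180, 142 and 137 CPM to 250 and 247 CPM (0.78 ± 0.186, edgeR adjusted p = 0.00308). Both had Collagen I plates above all BME plates, and both were also called higher in proliferating cells, Ndufv3 at 1.26 and Ndufa7 at 0.69.

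Proliferating cells showed the smallest nuclear difference. Of 85 tested, 7 were called lower and 2 higher, where 3.29% of all genes were called lower, 4.26% higher and 7.55% either way, and the median was -0.17 beside -0.07. Complex I genes together held 0.561% ± 0.0337 of counts in BME and 0.556% ± 0.0249 in Collagen I (exact permutation p = 1). Complex V genes held 0.788% ± 0.0356 against 0.662% ± 0.0331 (exact permutation p = 0.1). Among the called genes Ndufc2 had the largest fall, from 558, 482 and 474 CPM to 261 and 298 CPM (-0.93 ± 0.181, edgeR adjusted p = 0.00355), with no overlap. Summed proliferation markers overlapped between groups in this class (2467 to 3233 CPM and 3107 to 3445 CPM). Luminal markers (2124 to 2626 CPM and 3218 to 4454 CPM) and fibroblast markers (17.5 to 25.2 CPM and 120 to 317 CPM) were higher in Collagen I without overlap. Endothelial markers (1.45 to 2.73 CPM and 7.37 to 9.20 CPM) were too, but on very few counts. The Collagen I sums of this class held 326156 and 271479 counts. The part of the luminal, fibroblast and endothelial lists was not tested. The 9 calls became 1 when Collagen I replicate 1 was left out, 0 when replicate 3 of that matrix was, 2 without BME replicate 3, 5 without BME replicate 2 and 18 without BME replicate 1.

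Across classes, 5 nuclear members were called lower in all 3, namely Atp5g3, Atp5l, Cox5a, Ndufc2 and Ndufs1, and Ndufv3 was called higher in all 3. Of the mitochondrial members 9 were called lower in all 3. A further 7 nuclear members were called lower in 2 classes and 18 in 1. These classes come from the same plates, so the overlap is a count and not a repeat of the experiment. How many of all genes were called in several classes was not counted. The overlap is therefore not set against a background and is no result about the members.

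Over all kept cells, 32 of 86 nuclear members were called lower and 3 higher, where 15.2% of all genes were called lower and 15.1% higher. This fit mixes a change within classes with the smaller proliferating share in Collagen I. Cycs stood at 587, 519 and 547 CPM against 278 and 284 CPM (-0.97 ± 0.146, edgeR adjusted p = 0.000256). Factors for the assembly of complex I, Ndufaf2 (-1.40), Ndufaf4 (-1.25), Ndufaf6 (-0.85) and Ndufaf7 (-0.65), were called lower here. The 35 calls became 16 without either Collagen I plate and 22 without BME replicate 3, and the 12 mitochondrial calls became 6 without Collagen I replicate 1.

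Tissue-specific isoforms of complex IV were at or near 0. Cox4i2 was counted in 1 cell, Cox6a2 in 8 cells and Cox7a1 in 13 cells over the 5 plates, none of which passed the filter on low counts. Cox7b2, an isoform of Cox7b placed above with the complex IV subunits, was counted in 1 cell, on BME replicate 3. Ndufa4l2, an isoform of Ndufa4 known to rise in low oxygen, was the exception. It stood at 3.38, 3.36 and 0.775 CPM in BME and 7.44 and 12.03 CPM in Collagen I over all kept cells, without overlap (1.92 ± 0.616, edgeR adjusted p = 0.0303). That difference rests on 10 and 11 counts in 6 cells on each Collagen I plate, and its sign turned (-0.35) under the limit of 10% on all chromosome M counts. Ndufa4 itself, at 408, 438 and 390 CPM against 329 and 305 CPM, was not called (-0.38, adjusted p = 0.0514).

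Proliferating cells were next compared with luminal-like cells of the same plates, with the plate as a block. Nuclear members were higher in proliferating cells more often than lower, 24 against 6 of 85, where 18.9% of all genes were called higher and 18.7% lower, and the median was 0.14 beside -0.03. Cycs had 1 of the largest differences (log2 ratio 1.13 ± 0.1004, edgeR adjusted p = 5.98e-08), with within-plate log2 ratios of 1.11, 0.73 and 1.16 in BME and 1.57 and 1.54 in Collagen I. Cyc1, the cytochrome c1 of complex III, had ratios of 0.91, 0.73, 0.68, 0.71 and 1.01 (0.77 ± 0.0957, edgeR adjusted p = 4.03e-06). All 5 plates of both genes had the higher level in proliferating cells. Of the basal markers, Krt5 (2.22), Krt17 (2.04), Krt14 (1.39), Trp63 (1.37) and Cdh3 (1.29) were also called higher in the proliferating class. Itga6 (-0.12) was not called. The part of lineage in the differences between these 2 classes was not tested.

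Of the 7 Ndufaf assembly factors of complex I, 3 were called higher, Ndufaf2 (1.22), Ndufaf6 (1.10) and Ndufaf4 (0.70), and the others lay between -0.06 (Ndufaf7) and 0.43 (Ndufaf5). Complex V gave 7 of 15 subunits higher and 0 lower, with Atp5g3 at 0.40, Atp5g1 at 0.39 and Atp5k at 0.39. The 6 members called lower were Ndufa6 (-0.49), Ndufa13 (-0.46), Ndufv3 (-0.43), Cox7a2l (-0.37), Uqcrh (-0.24) and Ndufa7 (-0.24). Ndufa13, an accessory subunit also known as GRIM-19, was lower on every plate, at -0.45, -0.37, -0.46, -0.40 and -0.50. Among mitochondrial members mtNd3 (0.40) and mtNd1 (0.26) were called higher and mtCo1 (-0.22) lower of 13. Their shares did not exceed the 18.9% of all genes called higher and the 18.7% called lower. These calls are therefore no result about the mitochondrial members. Median counts per cell on the BME plates were 20604 to 25531 in luminal-like and 38867 to 42042 in proliferating cells, and the 30 nuclear calls became 19 without BME replicate 3 and 13 with cells thinned to 2000 counts.

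**Figure D5:**
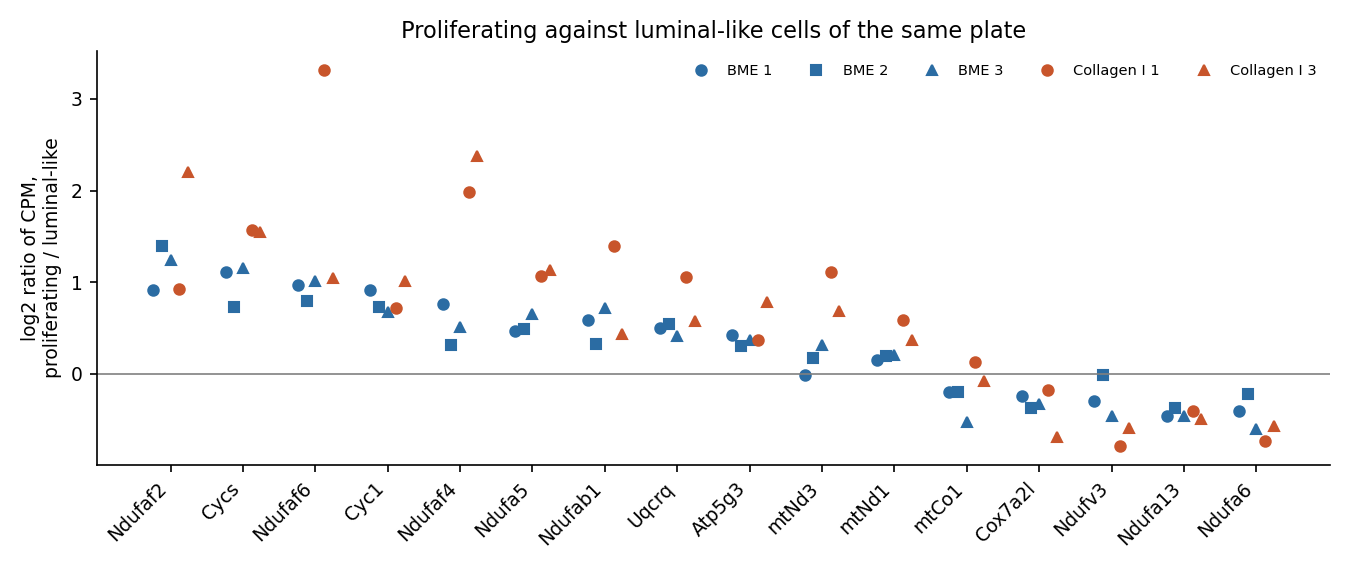
Within-plate log2 ratio of proliferating to luminal-like cells, log2((CPM + 1)/(CPM + 1)), for a part of the members called in this comparison, with 1 point per plate, its color for the matrix and its shape for the replicate. Cycs lies between 0.73 and 1.57 on all 5 plates and Ndufa13 between -0.50 and -0.37.

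Basal-like and luminal-like cells of the same plates gave few calls in these genes. Of 86 nuclear members, Uqcrq (0.47) and Ndufa4l2 (3.23) were called higher in basal-like cells and Ndufc2 (-0.40) lower, where 7.86% of all genes were called higher and 7.23% lower. The 13 mitochondrial members gave 0 calls with edgeR, with 4 at an unadjusted p under 0.05, and 0 under each of the 19 other settings. Their log2 ratios were all negative, from -0.28 to -0.13, and the luminal-like class had the larger summed mitochondrial share on all 5 plates (basal-like given first, 13.8% and 15.4%, 9.79% and 10.6%, 10.4% and 10.9%, 3.99% and 4.32%, 3.92% and 5.18%). Uqcrq, a small subunit of complex III, had within-plate log2 ratios of 0.61, 0.42, 0.27, 0.73 and 0.65, positive on every plate. For Ndufa4l2 they were 4.12, 3.52, 1.91, -0.86 and 5.68, so Collagen I replicate 1 had the opposite sign, on 10 counts over all its kept cells. The 3 nuclear calls became 0 without BME replicate 1.

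The Collagen I effect itself was smaller in proliferating than in luminal-like cells for part of the mitochondrial genome. In a test of the difference of the 2 effects, 6 of 13 mitochondrial members were called, all in the direction of a smaller fall, where 1.13% of all genes were called in that direction, 1.67% in the other and 2.80% in either. They were mtCo3 (0.64 ± 0.0894), mtNd3 (0.64 ± 0.108), mtNd4 (0.62 ± 0.0792), mtAtp6 (0.44 ± 0.0809), mtCytb (0.40 ± 0.0863) and mtNd2 (0.31 ± 0.0835). For mtNd4 luminal-like cells went from 18307, 11964 and 11649 CPM to 3890 and 4271 CPM, and proliferating cells from 16148, 10159 and 10778 CPM to 6014 and 5929 CPM. Of the nuclear members 0 of 85 were called with edgeR, with 6 at an unadjusted p under 0.05, 0 with DESeq2 and 2 when library size alone was used for scaling. The mitochondrial count became 2 without Collagen I replicate 1 and 2 with DESeq2. Between basal-like and luminal-like cells the test called 2 of 86 nuclear members (2.33%), Cox7a2l (-0.62 ± 0.187) and Ndufb11 (-0.75 ± 0.215), and 1 of 13 mitochondrial members, mtCo2 (-0.45 ± 0.110), each lower in basal-like cells. Of all genes 2.76% were called in that direction, 1.77% in the other and 4.53% in either, so the nuclear share was near the background and is no result about these members. DESeq2 called 0 of them, and 0 nuclear members were called when any BME plate was left out.

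Genes that serve the pathway from outside were described from further lists. A list of the carriers that feed complex V and export its product, the outer membrane channels and the inhibitor of complex V gave 3 of 7 genes lower in basal-like cells in Collagen I, beside 6.75% of all genes. The phosphate carrier Slc25a3 stood at 352, 471 and 495 CPM in BME and 164 and 169 CPM in Collagen I (-1.44, edgeR adjusted p = 4.77e-06). The ADP/ATP carrier Slc25a5 was at -1.29 and the complex V inhibitor Atpif1 at -0.60. Of 17 genes of the citric acid cycle and pyruvate dehydrogenase, 6 (35.3%) were called lower and 0 higher, among them Pdhb (-1.23) and Fh1 (-1.13). In luminal-like cells 7 (41.2%) were lower beside 11.5% of all genes, and in proliferating cells 3 (17.6%) beside 3.29%.

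Factors of mitochondrial transcription and genome upkeep gave 4 of 12 lower (33.3%, beside 6.75% of all genes) and 0 higher in basal-like cells. They gave 2 of 12 in luminal-like cells (16.7%, near the 11.5% of all genes) and 2 of 13 in proliferating cells (15.4%, beside 3.29%). Lrpprc, which stabilizes mitochondrial mRNA, stood at 113, 98.3 and 127 CPM in BME and 50.05 and 45.8 CPM in Collagen I (-1.26, edgeR adjusted p = 0.00189). It was called lower in luminal-like (-2.13) and proliferating cells (-1.34) as well. Tfam packages mitochondrial DNA and helps to start its transcription. It was called lower in basal-like cells (-1.07, edgeR adjusted p = 0.0310) and not called in luminal-like (-0.42) or proliferating cells (-0.34). Assembly factors of complex IV gave 2 of 15 lower, Surf1 (-1.47) and Cox20 (-0.80), and those of complexes I beyond Ndufaf, II, III and V gave 0 calls of 6, 2, 2 and 3 with edgeR, with 1 in all (complex V) at an unadjusted p under 0.05. The 8 tested regulators of nuclear mitochondrial genes, among them Nrf1 and Gabpa, gave 0 calls in basal-like cells, with 2 at an unadjusted p under 0.05.

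Genes linked to low oxygen and a lower use of the chain moved the other way. Of 8, 4 were called higher in basal-like cells, 5 in luminal-like and 3 in proliferating cells, and 0 lower, where 9.33%, 13.6% and 4.26% of all genes were called higher. Bnip3, a receptor for the removal of mitochondria, stood at 328, 213 and 177 CPM in BME and 501 and 755 CPM in Collagen I in basal-like cells (1.34, edgeR adjusted p = 1.19e-05). Its relative Bnip3l was at 1.00 and Higd1a, a small protein that binds complex IV, at 0.93. In luminal-like cells these 3 genes reached 2.23, 1.55 and 1.67.

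Promoter sequence of the nuclear members was read from RefSeq (GRCm38), as 250 bases before to 50 after the start, which gave 74 of 90 members. The NRF1 motif (GCGCA, then any base, then GCGC), for the factor named nuclear respiratory factor 1, stood in 18 of these 74 (24.3%) on either strand and in 5.19% of the 27025 genes with a promoter in the table. The GABPA motif CCGGAAGT stood in 5 (6.76%) and 4.31%. Stretches with the motif in capitals are given for Atp5k and Ndufaf4, which carry NRF1 letters and were called lower in basal-like cells, for Atp5g2, which carries them and was not called, and for Atp5h and Uqcr11 with GABPA letters, of which the first was called lower in basal-like cells.
Atp5k, chr5:108434420-108434469, minus strand: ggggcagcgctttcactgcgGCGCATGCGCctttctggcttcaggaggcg
Ndufaf4, chr4:24897950-24897999, plus strand: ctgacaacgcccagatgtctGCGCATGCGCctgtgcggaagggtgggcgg
Atp5g2, chr15:102671060-102671109, minus strand: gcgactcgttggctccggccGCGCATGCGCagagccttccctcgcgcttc
Atp5h, chr11:115419931-115419978, minus strand: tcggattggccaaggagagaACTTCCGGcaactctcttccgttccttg
Uqcr11, chr10:80406860-80406907, minus strand: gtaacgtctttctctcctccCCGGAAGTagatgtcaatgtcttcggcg
In Atp5h the motif lies on the opposite strand of the gene. Members with and without NRF1 letters were called lower in basal-like cells in 7 of 18 and 15 of 54 cases, in luminal-like cells in 5 of 18 and 7 of 54, and in proliferating cells in 1 of 18 and 5 of 54. The letters searched were chosen after sequences of these promoters had been seen, and a match is no evidence of binding.

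Some values are uncertain for single genes. Some nuclear members, such as the Atp5g genes, have close relatives or near-identical processed copies in the genome, and the sources used here do not say how reads that map to several places were treated. Positions were found in GENCODE vM21 for 102 of 103 members, all but Atp5o.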

How the data were processed

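Single cells of 5 plates were sequenced after SORT-seq, a plate protocol built on CEL-Seq2 that counts barcoded 3′ ends. The authors deposited estimated counts of transcripts per gene and well, mapped to mm10 with BWA per the labels and corrected for chance repeats of barcodes. Undoing that correction for 6-base barcodes (4096 of them) gave whole numbers for 99.6% to 99.9% of values within 0.02, although the labels give a shorter barcode. The counter, its version and its use of strand were not given in the sources used here.

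Wells with over 500 counts, under 8000 genes and under 10% of counts on genes named mt- (rRNA and tRNA) were kept, and 88 ERCC rows were set apart. Plates were integrated in Seurat 5.3.0 (2000 variable genes without chromosome M genes and members, 30 components) and clustered in R 4.3.3. A cluster of few detected genes was removed, and classes were named from marker lists. Doublets were not called. An alternative left out the top 5% of cells by counts.

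Counts were summed per plate and class and rounded. They were tested with edgeR 4.0.16 (quasi-likelihood, TMM, filterByExpr, standard error from the log2 fold change and F, Benjamini-Hochberg over all genes tested, threshold 0.05). Classes were compared with the plate as a block, and shares with two-sided exact permutation tests over plates. Scripts were tested on simulated data. Alternatives were DESeq2 1.42.0, limma-voom (limma 3.58.1), other scalings and filters, cells thinned to 2000 counts and leaving out each plate.

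The members and lists were chosen with earlier results of these data known. Named were all mitochondrial and complex II members, the isoforms, Atp5g genes, Cycs, Cyc1, the 3 subunits highest in CPM and the 3 most changed per complex and class, and up to 3 genes of each other list. Names outside that rule were chosen after their values were seen. They are Atp5d, Atp5j2, Atp5o, Cox7b2, Ndufa6, Ndufa7, Ndufa13, Ndufab1, Ndufb5, Ndufb11, Ndufs8, Uqcr11, the Ndufaf genes, Nrf1, Gabpa and the markers.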

Additional observations from a re-analysis of the deposited data

Results flagged for a closer look

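The effect of Collagen I against BME differed between classes for 9 members, by a test of the difference itself (edgeR, matrix by class, plate as a block, adjusted over all genes). Of all genes, 2.80% were called in the comparison of proliferating with luminal-like cells and 4.53% in that of basal-like with luminal-like cells. In proliferating cells it was less negative than in luminal-like cells for mtCo3 (difference of log2 fold changes 0.64, adjusted p = 1.09e-05), mtNd3 (0.64, adjusted p = 0.000186), mtNd4 (0.62, adjusted p = 2.41e-06), mtAtp6 (0.44, adjusted p = 0.000543), mtCytb (0.40, adjusted p = 0.00429) and mtNd2 (0.31, adjusted p = 0.0276). In basal-like cells it was more negative than in luminal-like cells for Ndufb11 (-0.75, adjusted p = 0.0289), Cox7a2l (-0.62, adjusted p = 0.0438) and mtCo2 (-0.45, adjusted p = 0.00707). The 2 nuclear ones are 2.33% of the 86 tested, near the 2.76% of all genes called in that direction, and DESeq2 called 0 of the 3. The Collagen I cells were shallower in every class than the BME cells, and the part of depth in these differences was tested only by thinning cells to 2000 counts, which gave 1 mitochondrial call on the difference between proliferating and luminal-like cells.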

How the results depend on the processing

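The differences of summed shares kept their sign under all 13 settings tried for each. With DESeq2 the nuclear calls in basal-like cells became 17, and calls on the difference of the Collagen I effect became 2 mitochondrial (proliferating against luminal-like) and 0 nuclear and 0 mitochondrial (basal-like against luminal-like). With limma-voom there were 4 nuclear calls in proliferating cells, 5 mitochondrial calls between proliferating and luminal-like cells, and 0 nuclear and 2 mitochondrial calls on the basal-like difference. RLE size factors gave 1 nuclear call on the basal-like difference. Library size alone gave 4 nuclear calls in proliferating cells, 2 nuclear and 11 mitochondrial on the proliferating difference, and 0 and 0 on the basal-like difference. Without the filter on low counts the latter had 3 mitochondrial calls.

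Without a mitochondrial limit, calls were 1 nuclear on the proliferating difference, 5 nuclear between basal-like and luminal-like cells and 4 nuclear on their difference. Limiting all chromosome M counts to 10%, which selects cells on the members, gave 7 nuclear and 7 mitochondrial calls in basal-like cells, 5 and 1 in luminal-like cells, 5 mitochondrial in proliferating cells and 14 and 6 over all kept cells. Between proliferating and luminal-like cells it gave 4 nuclear and 0 mitochondrial, on their difference 0 mitochondrial, between basal-like and luminal-like cells 1 nuclear, and on that difference 0 and 0. The log2 fold change changed sign under this limit for mtAtp8 (0.047 for the basal-like class, 0.043 for the luminal-like class, 0.029 over all kept cells), mtCo1 (0.40 for the luminal-like class, 0.0062 over all kept cells), mtCo2 (0.010 for the luminal-like class) and Ndufa4l2 (-0.35 over all kept cells). A minimum of 2000 counts, keeping the poor cluster, and members among the variable genes each gave 1 nuclear call on the proliferating difference. Leaving out the top 5% of cells gave 6 nuclear calls between basal-like and luminal-like cells and 0 and 0 on their difference. Thinning to 2000 counts gave 8 nuclear calls in luminal-like cells, 1 in proliferating cells and 21 over all kept cells, 13 between proliferating and luminal-like cells, 1 mitochondrial on their difference and 0 nuclear on the basal-like difference. Apart from fewer cells or samples, the cause was not tested.

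Leaving out 1 plate at a time gave nuclear calls of 10 to 36 in basal-like, 9 to 28 in luminal-like and 0 to 18 in proliferating cells and 16 to 51 over all kept cells. Mitochondrial calls ranged from 11 to 12, 7 to 12, 0 to 12 and 6 to 12. Between proliferating and luminal-like cells they were 19 to 27 nuclear and 2 to 4 mitochondrial, and on the difference 0 and 2 to 7. Between basal-like and luminal-like cells they were 0 to 3 and 0, and on the difference 0 to 2 and 0 to 2. The mitochondrial share differed by -7.60 to -5.34 percentage points over all kept cells, -8.13 to -6.13 in basal-like, -8.37 to -5.99 in luminal-like and -6.36 to -4.10 in proliferating cells. The nuclear share differed by -0.505 to -0.424, -0.638 to -0.578, -0.432 to -0.348 and -0.295 to -0.192.

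With the replicate number as a replicate block, nuclear calls were 20, 13, 8 and 31 and mitochondrial calls 12, 12, 11 and 12 in basal-like, luminal-like, proliferating and all kept cells. The groups share 2 numbers, and plates of the same number did not deviate together (r = -0.0168 and 0.0136 over 9076 genes), so the numbers were not taken as pairs. Of the named members' values under all settings, 3776 kept their direction and call, 327 lost the call, 81 gained it and 7 changed sign. Genes with few counts in Collagen I, such as Sdhb and the assembly factors, are limited by depth.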
